A study of Mus musculus with 6 samples.

Results

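The genes described here are those of the machinery that carries a cell from G1 into S phase: the D-type cyclins Ccnd1, Ccnd2 and Ccnd3, the E-type cyclins Ccne1 and Ccne2, the cyclin-dependent kinases Cdk2, Cdk4 and Cdk6, the transcription factor E2f1 and the pocket protein Rb1. They are 10 of 19937 genes tested. The members were chosen by name, with earlier results of these data known. Each had a single probe set with a single gene symbol, so no choice between probe sets was needed. RNA came from whole kidneys of 2 groups of mice with 3 samples each, and Affymetrix arrays were used, 1 per sample. NICD mice had the genotype Pax8rtTA TREICNotch1 which is described as making the Notch intracellular domain inducible in the epithelial cells of the tubule. Control mice were littermates given as wild-type, with normal genotype. Age, sex, the inducing agent, the duration of induction and whether Control mice received the agent are not given in the sources used here. Pax8 regulatory sequence drives the rtTA transactivator, so induction is directed to the tubule epithelium and not to the glomerular, vascular or immune cells that a whole kidney also holds.

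In a quiescent epithelium such as the adult renal tubule, most cells have left the cycle. On a growth signal, D-type cyclins accumulate and activate CDK4 and CDK6, which begin to phosphorylate the retinoblastoma protein RB1. This releases E2F factors from repression, and these raise transcription of the E-type cyclins, which bind CDK2 and complete RB1 phosphorylation, and of the enzymes of DNA replication. Notch signalling is known to act on cyclin D1 transcription in several cell types.

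The values are log2 expression after the authors' normalization, in which a step of 1 is a doubling. They range over the whole table between 1.40 and 13.67. The medians of the NICD arrays lay between 5.38 and 5.41 and those of the Control arrays between 5.26 and 5.29. Notch1, the gene whose intracellular domain is induced, stood at 10.29, 10.30 and 9.99 in NICD kidneys, against 6.65, 6.59 and 6.45 in Control kidneys. Its difference was 3.63 log2 (SE 0.12, adjusted p = 1.52e-07), and whether its probe set reads the transgene, the endogenous gene or both is not known here. Levels of different genes are not set against each other, because probe sets differ in brightness.

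Of the 10 genes, 8 rose in NICD kidneys, 0 fell, and Ccnd2 and Ccnd3 did not pass the test (limma, adjusted p under 0.05 over all genes). Over all 19937 genes the same test called 17.8% higher and 14.9% lower. The largest difference was that of Cdk6, at 9.94-fold, followed by Ccnd1 at 3.93-fold, and E2f1, Cdk4 and Cdk2 lay near 2 at 2.21-fold, 2.07-fold and 1.97-fold. Ccne2 rose 1.71-fold, Ccne1 1.61-fold and Rb1 1.34-fold. The 8 genes that rose were also those whose 3 NICD arrays all lay above the 3 Control arrays, a pattern held by 23.7% of all genes. Rises of at least 2-fold were called for 4 of the 10 genes (Cdk6, Ccnd1, E2f1 and Cdk4), against 4.65% of all genes. Which genes passed 2-fold depended on the setting. Cdk4 lay below it after each array was centred on its median (0.92 log2) and with array weights (0.92 log2). Without NICD replicate 3, Cdk4 was at 0.95 and Cdk2 at 1.04 log2. Cdk2 also passed 2-fold without Control replicate 2 (1.01 log2) or Control replicate 3 (1.07 log2). The median difference over the 10 genes was 0.88 log2, against 0.015 over all genes. RNA of the whole organ was measured, so more or fewer cells of a type and more or less RNA per cell cannot be told apart.

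**Figure D1:**
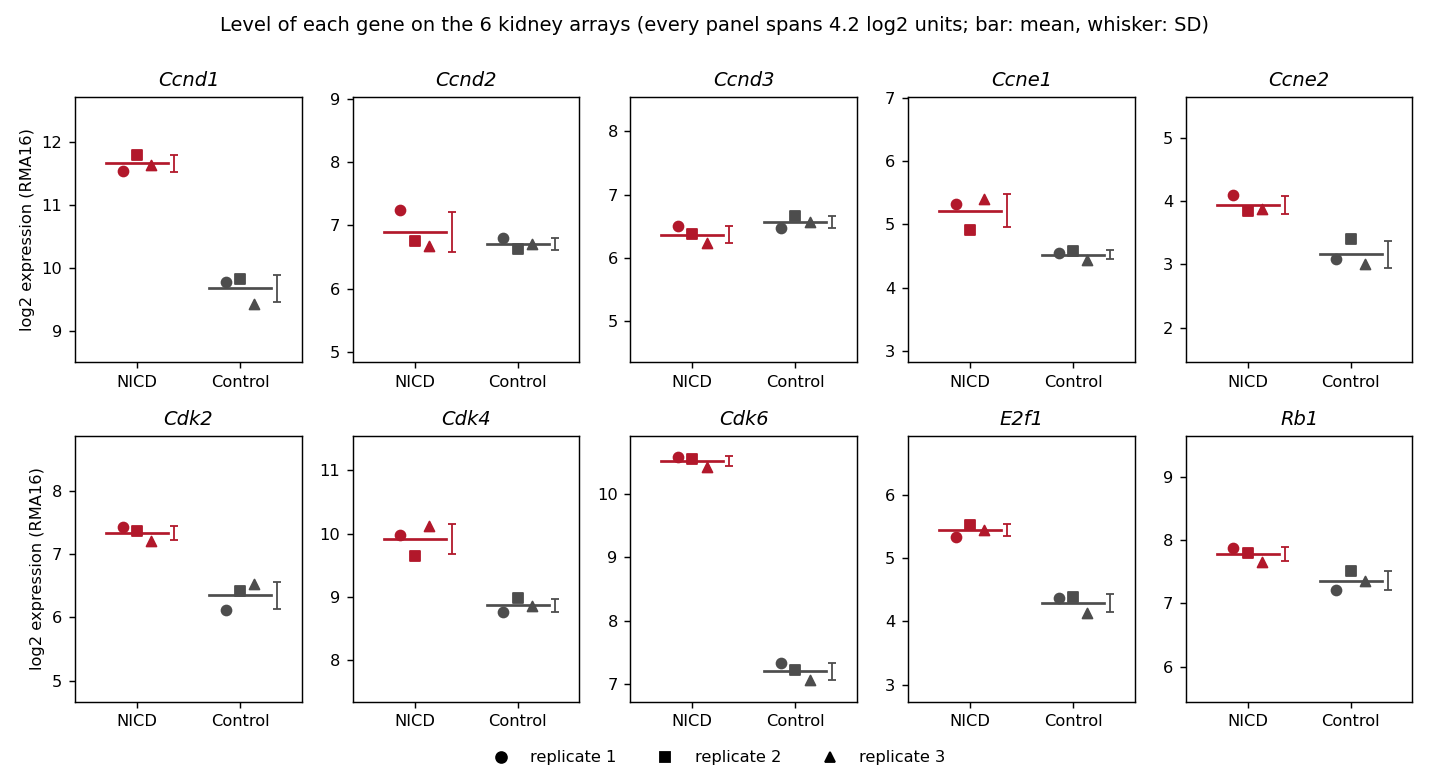
Log2 expression (vertical axis) of the 10 genes on each array, NICD left and Control right, with symbols for replicates 1 to 3, a bar for the mean and a whisker for the SD (n = 3). Every panel spans the same range, so that the distance between groups can be compared by eye: it is widest for Cdk6 and Ccnd1, and the groups overlap for Ccnd2 and Ccnd3.

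Cyclin D1, encoded by Ccnd1, is the D-type cyclin most often coupled to mitogen signals in epithelia. Ccnd1 stood at 11.54, 11.79 and 11.63 in NICD kidneys, against 9.78, 9.83 and 9.43 in Control kidneys. The groups did not overlap, and the gap between the lowest NICD and the highest Control array was 1.71 log2, several times the SD within either group (0.12 in NICD and 0.22 in Control). The difference was 1.97 log2 (SE 0.13, 95% interval 1.68 to 2.27, adjusted p = 5.61e-06), and only 1.02% of all genes had a larger difference in the upward direction.

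The RNA of cyclin D2, a cyclin prominent in lymphoid, gonadal and neural cells, showed no such difference. Ccnd2 stood at 7.25, 6.76 and 6.67 in NICD kidneys, against 6.80, 6.62 and 6.70 in Control kidneys. NICD replicate 1 was the highest of the 6 arrays, while the other 2 NICD arrays lay within the Control range. The difference was 0.19 log2 (SE 0.15, adjusted p = 0.44) with a 95% interval of -0.16 to 0.53, or 0.895-fold to 1.45-fold. Without NICD replicate 1 it was 0.01. In that same array the 8 measured myeloid markers averaged 6.88, against 6.22 in each of the other 2 NICD arrays, and their part in the Ccnd2 value was not tested.

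Cyclin D3 is the D-type cyclin with the widest expression across differentiated tissues. Ccnd3 stood at 6.50, 6.38 and 6.23 in NICD kidneys, against 6.48, 6.67 and 6.57 in Control kidneys. NICD replicate 1 lay just above the lowest Control array, so the groups overlapped. The difference was -0.20 log2 (SE 0.11, adjusted p = 0.217), with a 95% interval of -0.45 to 0.05. A rise of the size seen for Ccnd1 lies outside the intervals of both Ccnd2 and Ccnd3.

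The RNAs of CDK4 and CDK6, the catalytic partners of the D-type cyclins, both rose but by unequal amounts. Cdk6 stood at 10.58, 10.55 and 10.43 in NICD kidneys, against 7.33, 7.22 and 7.06 in Control kidneys. The SD over the 3 NICD arrays was 0.08, and the gap to the highest Control array was 3.10 log2. The difference was 3.31 log2 (SE 0.11, 95% interval 3.07 to 3.56, adjusted p = 1.52e-07), a fold of 8.39 to 11.8 by that interval. Of all genes tested, 33 had a larger upward difference and 19 had a lower p, so the kinase gene was among the most changed transcripts of the kidney. Cdk4 stood at 9.98, 9.65 and 10.12 in NICD kidneys, against 8.77, 8.98 and 8.85 in Control kidneys. Its groups were 0.67 log2 apart at their nearest arrays. The difference was 1.05 log2 (SE 0.14, 95% interval 0.74 to 1.35, adjusted p = 0.000299).

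The promoter windows of both kinase genes are shown because these are the D-cyclin partners that rose and because their windows differ in a short motif. RefSeq windows of assembly GRCm38.p6 were matched for 6 of the 10 genes (Ccnd3 with 2 windows, Ccne1, Cdk2, Cdk4, Cdk6 and E2f1). Those of Ccnd1, Ccnd2, Ccne2 and Rb1 were not analysed here. Each window here holds the 250 bases before an annotated start. Except for Ccnd3, 1 start per gene was searched, so sequence before other starts is not covered. The E2f1 window holds sequence that codes for part of the E2F1 protein, so it lies within the gene. Capitals mark the E-box CACGTG, which reads the same on both strands and is the core sequence bound by MYC with its partner MAX. The Cdk4 window is chr10:127063285-127063534 on the plus strand and the Cdk6 window chr5:3343643-3343892 on the plus strand.
Cdk4: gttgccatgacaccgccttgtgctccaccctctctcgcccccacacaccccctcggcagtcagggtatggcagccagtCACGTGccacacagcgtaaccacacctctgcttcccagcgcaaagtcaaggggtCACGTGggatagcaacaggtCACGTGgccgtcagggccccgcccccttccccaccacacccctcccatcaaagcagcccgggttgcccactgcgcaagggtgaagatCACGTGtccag
Cdk6: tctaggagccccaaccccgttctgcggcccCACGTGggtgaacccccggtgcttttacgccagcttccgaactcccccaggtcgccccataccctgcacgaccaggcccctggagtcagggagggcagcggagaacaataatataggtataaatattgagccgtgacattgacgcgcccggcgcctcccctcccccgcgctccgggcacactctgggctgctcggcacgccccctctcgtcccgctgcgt
The Cdk4 window held 4 E-boxes, whose first bases lay 172, 118, 98 and 11 bases before the start, and the Cdk6 window held 1, at 220 bases before it. At least 1 E-box was present in 6.02% of all 32851 windows and at least 4 in 7 of them. The windows of Ccnd3, Ccne1, Cdk2 and E2f1 held none. The E-box was searched after the sequences had been seen. The motif of the Notch effector RBPJ, GTGGGAA on either strand, was not found in any of the 7 windows, and 5.42% of all windows held it. A match describes letters in a window and is not evidence of binding.

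The E-type cyclins act after the D-type cyclins, as partners of CDK2. Ccne1 stood at 5.33, 4.92 and 5.40 in NICD kidneys, against 4.55, 4.58 and 4.44 in Control kidneys. NICD replicate 2 was the lowest of its group and still lay 0.34 log2 above the highest Control array. The difference was 0.69 log2 (SE 0.14, 95% interval 0.38 to 1.0, adjusted p = 0.00356). Ccne2 stood at 4.10, 3.84 and 3.87 in NICD kidneys, against 3.08, 3.40 and 3.0 in Control kidneys. Control replicate 2 was the nearest Control array, 0.44 log2 below the NICD range. The difference was 0.78 log2 (SE 0.13, 95% interval 0.48 to 1.07, adjusted p = 0.00155). Both cyclin E genes were below the array median in all 3 NICD and all 3 Control arrays. The normalization used compresses differences of dim probe sets, so these folds may be understated, and no detection calls were available.

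The RNA of CDK2, the kinase that the E-type cyclins activate, was higher in every NICD array than in any Control array. Cdk2 stood at 7.42, 7.37 and 7.20 in NICD kidneys, against 6.11, 6.41 and 6.52 in Control kidneys. The Control arrays spread more widely (SD 0.21) than the NICD arrays (SD 0.11), and the gap between the groups was 0.68 log2. The difference was 0.98 log2 (SE 0.13, 95% interval 0.69 to 1.27, adjusted p = 0.000319). Of the 7 windows searched, only that of Cdk2, chr10:128705052-128705301 on the minus strand, held an E2F word, and it is shown for that reason. The E2f1 window lies before 1 annotated start and holds coding sequence of that gene. Its lack of a word does not speak for the gene's other starts or for the promoter upstream of that coding sequence. The words searched on both strands were TTTGGCGC, TTTCCCGC, TTTGCCGC and TTTCGCGC, and capitals mark the match, which is TTTCCCGC on the opposite strand.
Cdk2: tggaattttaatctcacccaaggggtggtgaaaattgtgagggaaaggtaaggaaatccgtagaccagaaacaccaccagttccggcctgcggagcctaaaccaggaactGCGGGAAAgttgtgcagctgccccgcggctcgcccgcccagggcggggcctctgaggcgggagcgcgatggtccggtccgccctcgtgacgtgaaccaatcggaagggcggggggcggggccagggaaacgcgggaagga
The match began 140 bases before the start. At least 1 of these words stood in 1.86% of all windows. Only exact matches were counted, so a window without a word may still hold a variant E2F site.

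E2F1 is an activator E2F, and its gene is itself raised by E2F activity in cycling cells. E2f1 stood at 5.34, 5.53 and 5.44 in NICD kidneys, against 4.37, 4.38 and 4.13 in Control kidneys. The groups were 0.95 log2 apart. The difference was 1.14 log2 (SE 0.11, 95% interval 0.89 to 1.40, adjusted p = 5.18e-05). E2f1 was below the array median in all 3 Control arrays and in 1 of the 3 NICD arrays.

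The RNA of RB1, the pocket protein that holds E2F factors inactive, had the smallest called difference of the 10 genes. Rb1 stood at 7.88, 7.80 and 7.66 in NICD kidneys, against 7.21, 7.51 and 7.36 in Control kidneys. The nearest arrays of the groups were only 0.14 log2 apart. The difference was 0.42 log2 (SE 0.11, 95% interval 0.16 to 0.68, adjusted p = 0.0199). The call was lost without NICD replicate 1 (adjusted p = 0.0584), NICD replicate 2 (0.0598), Control replicate 1 (0.0709) or Control replicate 3 (0.0614), and after each array was centred on its median (0.29 log2, adjusted p = 0.0943). Centring moved the median difference of all genes to -0.108 log2, and the differences of the other 7 genes that rose stayed past the threshold.

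**Figure D2:**
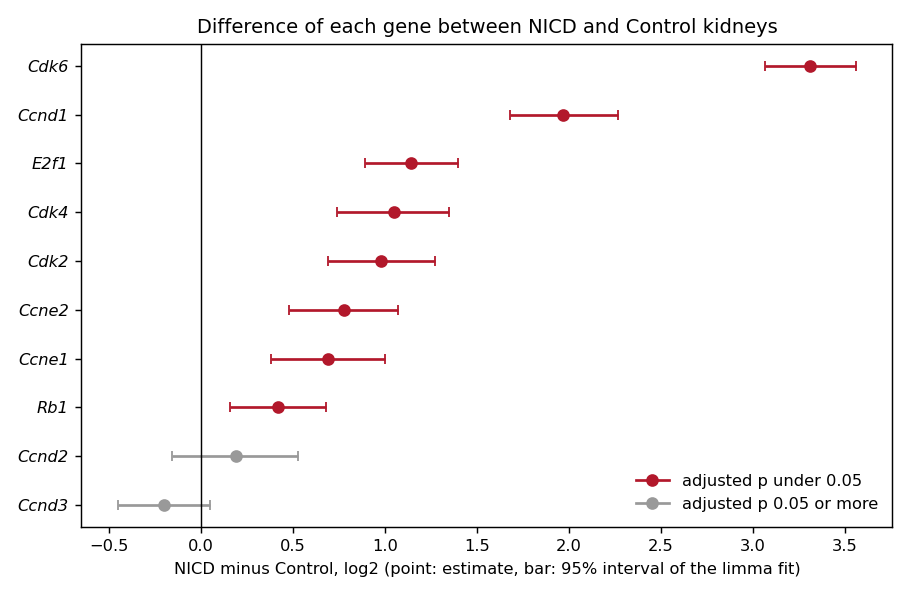
Difference of each gene, NICD minus Control, in log2 (horizontal axis), with the 95% interval of the limma fit, genes ordered by size. Cdk6 (3.31) and Ccnd1 (1.97) stand apart from the group between 0.69 and 1.14, and the intervals of Ccnd2 and Ccnd3 include 0.

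Whether members of a family changed unequally was read from the ratio of their values within each array, for 7 pairs. Only the change of such a ratio between groups has a meaning, not its level. With 3 arrays against 3, the exact two-sided permutation test cannot give less than p = 0.1, or 0.14 after Benjamini-Hochberg adjustment over the 7 pairs here, so none of these tests could pass 0.05. The log2 ratio of Ccnd1 over Ccnd2 was 4.29, 5.03 and 4.96 in NICD kidneys, against 2.99, 3.21 and 2.73 in Control kidneys. It differed by 1.79 (exact p = 0.1), with no overlap. The ratio of Ccnd1 over Ccnd3 was 5.28 ± 0.21 in NICD and 3.11 ± 0.22 in Control kidneys (SD, n = 3 each), a difference of 2.18 (exact p = 0.1). Both ratios were higher in every NICD array than in any Control array. Ccnd2 over Ccnd3 differed by 0.39 (exact p = 0.1), its lowest NICD array at 0.38 and its highest Control array at 0.31.

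Among the kinases, the ratio of Cdk4 over Cdk6 was -0.60, -0.90 and -0.31 in NICD kidneys, against 1.44, 1.75 and 1.79 in Control kidneys. The difference was -2.27 (exact p = 0.1), and every NICD ratio lay below every Control ratio. Cdk2 over Cdk6 was -3.19 ± 0.03 in NICD and -0.86 ± 0.34 in Control kidneys (SD, n = 3 each), a difference of -2.33 (exact p = 0.1). The ratio of Cdk2 over Cdk4 differed by -0.07 between overlapping groups (exact p = 1.0), or by -0.42 after quantile normalization. The ratio of Ccne1 over Ccne2 differed by -0.08 (exact p = 0.7), and its groups overlapped too.

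**Figure D3:**
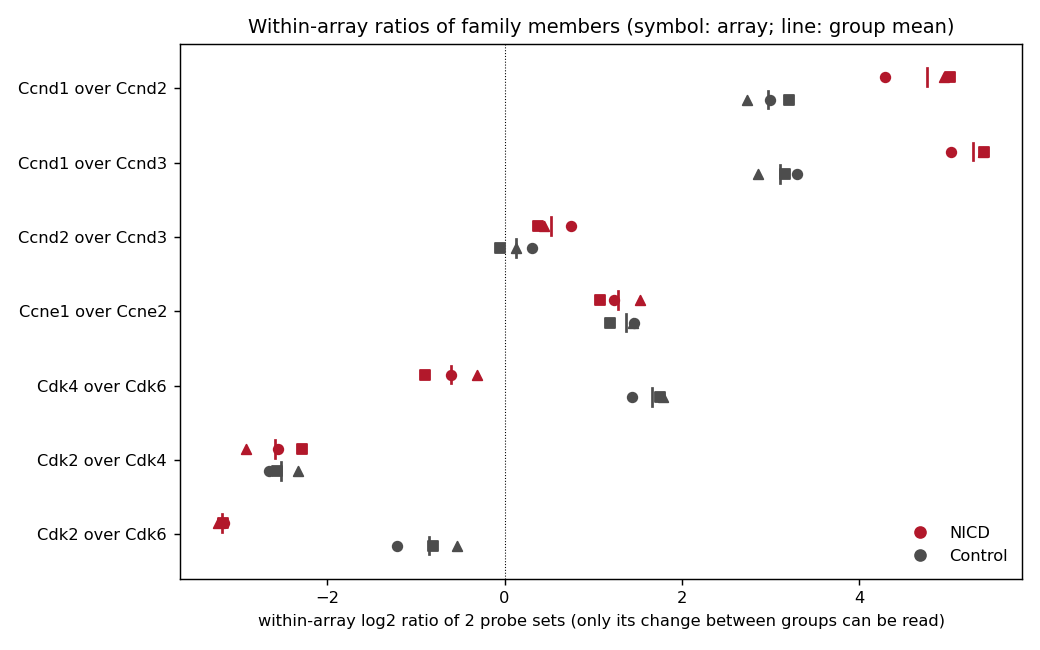
Within-array log2 ratio (horizontal axis) of 7 pairs of family members, NICD above Control in each row, with a symbol per array (circle, square and triangle for replicates 1 to 3) and a line at the group mean. Ratios with Ccnd1 moved up and ratios over Cdk6 moved down in NICD kidneys with no overlap, while Ccne1 over Ccne2 and Cdk2 over Cdk4 overlapped.

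Of the 11 measured genes of the E2F and pocket protein families beside E2f1 and Rb1, 6 rose and 0 fell, and the median difference was 0.35 log2. By the same test, 17.8% of all genes were higher and 14.9% lower. Rbl1, which encodes the pocket protein p107 and is itself an E2F target, stood at 7.89, 7.44 and 7.61 in NICD kidneys, against 5.76, 5.96 and 5.80 in Control kidneys. Its difference was 1.80 log2 (SE 0.13, adjusted p = 9.04e-06), against 0.42 log2 for its relative Rb1. E2f8 and E2f7, which encode the atypical E2F repressors that are themselves induced late in G1 and S phase, rose by 1.56 and 0.81 log2. Tfdp1, the dimerisation partner that E2F1 needs to bind DNA, rose by 0.84 log2. E2f2, named after its value was seen, stood at 4.34, 4.55 and 4.87 in NICD kidneys, against 5.0, 4.84 and 5.16 in Control kidneys (-0.41 log2, adjusted p = 0.0607), and was called lower in 6 alternative settings.

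All 23 measured E2F target genes of the G1/S transition rose, with a median difference of 1.74 log2 and a range of 0.50 to 3.61, and for 22 of them the groups did not overlap. The exception was Mybl2 (0.50 log2, adjusted p = 0.044), named after its value was seen. Its call was lost under quantile normalization, centring, array weights, a fit over all probe sets or the 0.01 threshold, and without NICD replicate 1 or 3 or Control replicate 2 or 3. Of all genes, 17.8% were called higher, and 23.7% had every NICD array above every Control array. The list of E2F targets was chosen with earlier results of these data known. Many of its genes are replication genes already known to be higher here. Mcm6, a subunit of the replicative helicase, stood at 7.88, 7.44 and 7.80 in NICD kidneys, against 4.24, 4.01 and 4.05 in Control kidneys (3.61 log2, adjusted p = 2.90e-07). Ccna2, the S-phase cyclin that follows cyclin E on CDK2, rose by 2.90 log2. Rrm1, the large subunit of ribonucleotide reductase, rose by 1.74 log2, and the histone methyltransferase gene Ezh2 by 1.76 log2. The rises of Ccne1 and Ccne2, which are also E2F targets, at 0.69 and 0.78 log2, lay in the lower part of that range. Both genes were below the median of every array, where folds may be understated. All 11 measured regulators of S, G2 and M phase rose as well (median 1.65 log2), among them Top2a, which untangles DNA before mitosis, by 3.41 (2.0 when its 2 probe sets were averaged), the proliferation marker Mki67 by 3.24, the checkpoint kinase Bub1 by 2.59 and the mitotic cyclin Ccnb2 by 2.17 log2.

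Of 15 measured genes that activate G1 kinases or turn over cyclins and inhibitors, 5 rose and 3 fell (median 0.09 log2), against 17.8% of all genes higher and 14.9% lower. At an adjusted p threshold of 0.01, 3 were higher and 1 was lower. The shares of all genes given here are for the 0.05 threshold. At 0.01, fewer of all genes were called in either direction. Cks1b and Skp2, which act together in the ubiquitin ligase that removes the inhibitor p27, rose by 1.26 and 0.71 log2. Fbxw7, the ubiquitin ligase adaptor that marks cyclin E for destruction, rose by 0.65 log2, or by 0.38 log2 (adjusted p = 0.0152) when its 2 probe sets were averaged. The 3 that fell were Skp1, the adaptor shared by these ligases, by 0.71 log2, Ccnh, the cyclin of the CDK-activating kinase, by 0.58 log2, and Cul3, a ligase scaffold that also acts on cyclin E, by 0.34 log2. Quantile normalization turned the Cul3 difference to 0.05 log2, and its call was lost without NICD replicate 2 or 3 or Control replicate 2 or 3, at the 0.01 threshold and with the replicate block (adjusted p = 0.0632).

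Among 6 measured genes for inhibitors of G1 kinases, 4 rose and 1 fell (median 0.55 log2), against 17.8% of all genes higher and 14.9% lower. Cdkn1a, also in this list, had no probe set of its own with a single symbol and was not analysed here. The CDK4 and CDK6 inhibitor Cdkn2b rose by 1.31 log2, Cdkn1b (p27) by 0.69 and Cdkn2a by 0.41, while Cdkn1c (p57) fell by 0.95 log2. The Cdkn2a call was lost after quantile normalization (adjusted p = 0.0616) and after centring (adjusted p = 0.0643). It was also lost at the 0.01 threshold and without NICD replicate 2 or Control replicate 2. Without NICD replicate 2, the number that rose was 2.

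**Figure D4:**
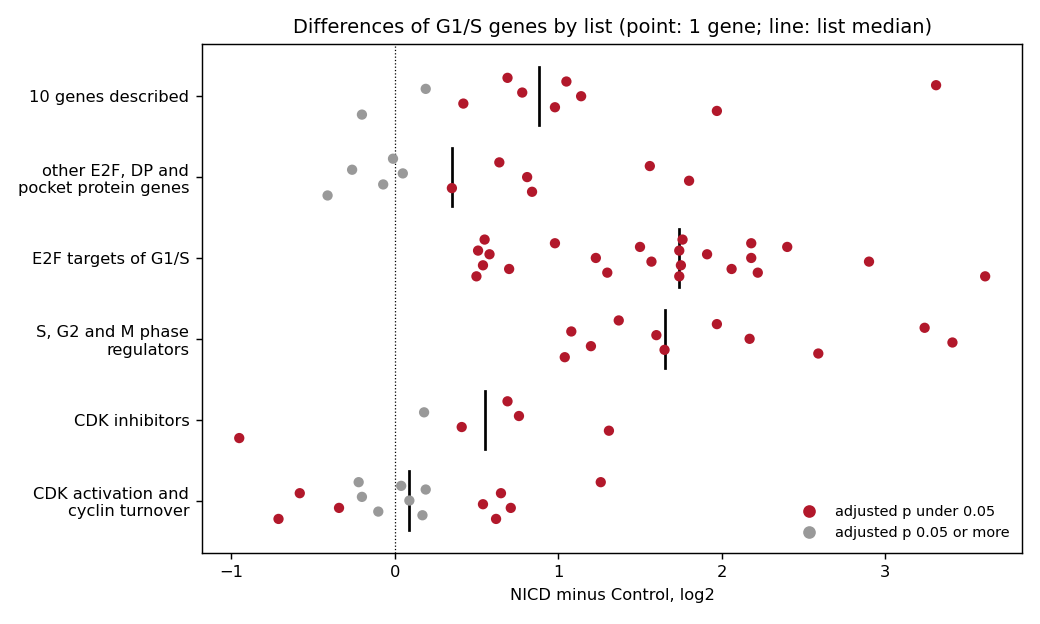
Differences, NICD minus Control, in log2 (horizontal axis) for single genes in 6 lists, with red points for adjusted p under 0.05, grey points for the others and a black line at the median of each list. All E2F targets of G1/S and all regulators of S, G2 and M phase lie to the right of 0, while the genes of CDK activation and cyclin turnover lie on both sides.

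Markers of the cell types of the kidney moved with the group. For comparison, 17.8% of all genes were called higher and 14.9% lower. All 8 proximal tubule markers fell, and their mean level lay between 7.48 and 8.63 in NICD kidneys, against 11.27 to 11.35 in Control kidneys. Their differences ran from -5.51 to -1.40 log2, with -1.47 for the fatty acid transport protein Slc27a2 and -2.61 for the endocytic receptor Lrp2. Of 8 myeloid markers 7 rose, with a mean level of 6.22 to 6.88 in NICD and 4.89 to 5.04 in Control kidneys, led by the lysozyme gene Lyz2 (3.94 log2). Of 6 fibroblast markers 4 rose, with a mean level of 7.47 to 8.34 in NICD and 6.92 to 7.20 in Control kidneys. The call of 1 of these, Acta2 (0.94 log2), was lost without NICD replicate 1 or 2 or Control replicate 2 and at the 0.01 threshold. T cell markers averaged 4.14 to 4.37 in NICD and 3.96 to 4.02 in Control kidneys, with 2 of 6 called higher, and 5 of the 6 lay below the array median in every array. Of these 2 calls, that of Cd3e (0.30 log2, adjusted p = 0.0456) was lost in 11 alternative settings, among them both other scalings, the replicate block and leaving out any array but Control replicate 1. B cell markers averaged 3.36 to 3.59 in NICD and 3.63 to 3.76 in Control kidneys, with all 4 below the median in every array and 1 called lower. Of 6 endothelial markers 4 fell (5.44 to 6.38 in NICD and 7.01 to 7.08 in Control kidneys). Podocyte markers averaged 5.36 to 5.54 in NICD and 5.82 to 5.98 in Control kidneys, with 2 of 4 called lower and 1 higher. In the loop of Henle and distal tubule 5 of 6 markers fell and Umod rose by 0.32 log2, a call lost after centring, with the replicate block (adjusted p = 0.0726), at the 0.01 threshold and without NICD replicate 1 or 2 or Control replicate 1 or 3. Of 8 collecting duct markers 6 fell and 2 rose. In NICD replicates 1 to 3, the myeloid mean was 6.88, 6.22 and 6.22, and the proximal tubule mean 7.48, 8.25 and 8.63. In the same order, Cdk6 stood at 10.58, 10.55 and 10.43 and Ccnd1 at 11.54, 11.79 and 11.63. The part of the marker shifts in the rises of the G1 cyclin and kinase genes was not tested.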

How the data were processed

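Per the labels' protocols, the authors prepared total RNA from whole kidneys with TRIzol, labelled it with the Affymetrix one-cycle kit and normalized the arrays in GeneSpring with RMA16. The deposited values are log2 expression per probe set. This normalization compresses dim genes and largely removes a shift of all genes. Versions and scan batches are not given in the sources used here. No label says that replicates are separate animals, so p-values measure the spread between these samples, and 3 arrays a group limit the precision.

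Of 34760 probe sets, 6573 numbered below the lowest annotated one were left out. Symbols came from the platform annotation, and 1321 probe sets with several symbols were not named. Each gene was represented by its brightest probe set (mean of the 6 arrays), giving 19937 genes. NICD minus Control was fitted with limma 3.58.1 in R 4.3.3 without covariates, two-sided, with Benjamini-Hochberg adjustment across all 19937. The fit was tested on simulated data. Named were the 10 members, Notch1, the up to 4 genes with the lowest p in each further list, called genes against their list's majority, and 2 markers per cell type at most. List genes with no single-symbol probe set were not analysed here. The members and lists were chosen with earlier results of these data known. The closing section gives the alternatives tried.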

Additional observations from a re-analysis of the deposited data

How the results depend on the processing

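The number of the 10 genes called higher was 8, or 7 after centring of arrays, at an adjusted p threshold of 0.01, with the dimmest 40% of genes left out (where Ccne2 had no value), and without NICD replicate 1 or 2 or Control replicate 1 or 3. It stayed 8 with probe sets averaged per gene, under quantile normalization, with trended and robust variance, array weights, a fit over all 28187 probe sets, and without the other 2 arrays. The number called lower was 0 in each of these settings. Where the count was 7, Rb1 was the gene lost, except under the filter on dim genes: 0.29 log2 after centring and 0.42 (adjusted p = 0.0199) at the 0.01 threshold, with 0.34 to 0.49 over single arrays left out. Over the same left-out arrays, Cdk6 ranged between 3.24 and 3.38, Ccnd1 between 1.85 and 2.05, Ccnd2 between 0.01 and 0.30 and Ccnd3 between -0.27 and -0.13. Quantile normalization raised Cdk6 to 3.53, Ccnd1 to 2.35 and Cdk4 to 1.41 log2, each above its range over left-out arrays. It lowered E2f1 to 1.05, Ccne2 to 0.76 and Ccne1 to 0.60 log2. Centring also changed the split of all calls to 2594 higher and 3990 lower (39.4% higher), against 3551 and 2978 (54.4% higher) as reported. Among other E2F and pocket protein genes, 1 was lower under quantile normalization, centring, the filter on dim genes, array weights and the replicate block, with 0 to 1 over single arrays left out. E2F target genes of G1/S gave 22 to 23 higher over all settings. At the 0.01 threshold, CDK activation and turnover genes gave 3 higher and 1 lower and CDK inhibitors 2 higher. Fewer of all genes were called in either direction at 0.01 than at 0.05. The inhibitors gave 2 to 4 higher over single arrays left out. Quantile normalization moved the ratio changes of Ccnd1 over Ccnd2 to 2.17, Ccnd1 over Ccnd3 to 2.60 and Cdk2 over Cdk4 to -0.42, and turned Cul3 to 0.05. Csf1r, a myeloid marker, had a difference between -0.17 and 0.03 over single arrays left out, above 0 without NICD replicate 3. The cause of these changes was not tested. Same-numbered arrays of the groups showed no shared deviation (correlations of -0.069, -0.012 and -0.070). With 3 arrays a group, this check cannot decide whether the numbers pair the samples. The replicate block called 3219 genes higher and 2762 lower and kept 8 of the 10 genes higher.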
